A study of Mus musculus with 19 samples.

Results

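Polr2k and Pcid2 are 2 genes of the messenger RNA life cycle, one acting in transcription and the other in export from the nucleus. They were read by 3 probe sets, 17311064 and 17548080 for Polr2k and 17499251 for Pcid2, out of 8751 probe sets in the deposited values. Whether the array holds further probe sets was not checked, and shares over all probe sets refer to these 8751. The members are every probe set whose only platform gene symbol is one of the 2 names, and 0 probe sets list either gene together with another. Measurements were taken from mouse forebrain on Affymetrix Mouse Gene 2.0 ST arrays, which carry short probes along the length of each transcript. The 19 arrays held 5 samples from EphA4 knockout (KO) mice kept awake for 6 h, 6 from wild-type (WT) mice kept awake for 6 h, 4 from undisturbed EphA4 KO controls and 4 from undisturbed WT controls. EphA4 is a receptor tyrosine kinase that binds ephrins at contacts between neurons and glia. All groups shared a mixed BL6/10 strain background and a cycle of 12 h light and 12 h dark, and the WT mice were littermates of the knockouts. The labels do not state how the knockout was made, in which cells Epha4 was lost, or the age of the mice. No probe set here carries Epha4 alone, so the genotype labels could not be checked against its level.

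Polr2k encodes a small zinc-binding subunit shared by RNA polymerases I, II and III, the counterpart of RPB12 in yeast. Pcid2 encodes a protein with a PCI domain and is the mammalian counterpart of yeast Thp1. In yeast and in mammalian cells this protein belongs to the TREX-2 complex, which sits at the nuclear pore and couples transcribed genes to the export of their messenger RNA. In the brain, as in other tissues, both genes serve housekeeping steps of gene expression.

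The promoter of Pcid2 is shown because it is the stretch of regulatory DNA on record here for a member. The RefSeq table of promoters (build GRCm38.p6) held a window for Pcid2 and none for Polr2k. The Pcid2 window lies at chr8:13105294-13105593 on the minus strand, from 250 bases before the annotated start to 50 bases after it, and is written 5′ to 3′ with motif matches in capitals.
Pcid2: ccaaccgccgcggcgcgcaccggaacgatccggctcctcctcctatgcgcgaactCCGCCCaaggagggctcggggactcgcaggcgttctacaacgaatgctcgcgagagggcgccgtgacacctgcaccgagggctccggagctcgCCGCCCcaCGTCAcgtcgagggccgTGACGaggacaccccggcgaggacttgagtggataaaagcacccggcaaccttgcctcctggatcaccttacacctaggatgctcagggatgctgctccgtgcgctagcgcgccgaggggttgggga
G and C made up 67.7% of these 300 bases, against a median of 52.7% over 32851 promoter windows of the same length. Of 10 motifs searched on both strands, 2 were found. The GC box GGGCGG occurred on the opposite strand with its first printed base at positions -195 and -102 from the start, and 35.7% of all windows held it. The cyclic AMP response half-site TGACG occurred once on each strand, at -94 and -77, and 20.8% of all windows held it. The matches do not overlap each other. The letters of the TATA box (TATAAA), the CCAAT box, the E-box (CACGTG), the ETS core (CCGGAAG), the full cyclic AMP response element, the glucocorticoid half-site (TGTTCT), the NRF1 palindrome and the YY1 core were not in this window.

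These genes were chosen by the difference between sleep-deprived KO mice and sleep-deprived WT mice, measured on these arrays. Those levels, the change with sleep deprivation within each genotype and the difference between these changes are therefore given as a description, and no p-value from them serves as support. The comparison of control mice was tested, and so was sleep deprivation averaged over genotypes, which reuses the sleep-deprived arrays but not their difference. Values are log2 expression, on which a difference of 1 is a doubling, and levels of different probe sets cannot be compared with each other.

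Pcid2 was higher in every sleep-deprived KO array than in every sleep-deprived WT array. Its 5 levels were 6.53, 6.08, 6.35, 6.30 and 6.34 in sleep-deprived KO mice, replicates 1 to 5. In the 6 sleep-deprived WT mice they ran from 5.82 through a median of 5.97 to 6.00. KO controls read 6.09, 6.04, 6.02 and 5.94, and WT controls 6.01, 6.06, 6.20 and 6.06. Replicate 2 of the sleep-deprived KO mice, at 6.08, stood closest to the WT mice and within the range of both control groups. The other 4 sleep-deprived KO arrays lay above every array of the other 3 groups. This leaves replicate 2 aside, and the share of all probe sets with such a pattern was not counted. In the series as a whole, 1.53% of probe sets had sleep-deprived KO arrays entirely above the sleep-deprived WT arrays. The choice of the gene on these arrays favours this result for Pcid2, so it is no support. Group means were 6.32 ± 0.16 (SD, n = 5) in sleep-deprived KO mice, 5.94 ± 0.07 (SD, n = 6) in sleep-deprived WT mice, 6.02 ± 0.06 (SD, n = 4) in KO controls and 6.08 ± 0.08 (SD, n = 4) in WT controls. Below the sleep-deprived KO mice came WT controls, KO controls and sleep-deprived WT mice, in steps of 0.06 and 0.08 that are about the size of the SD within these groups.

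**Figure D1:**
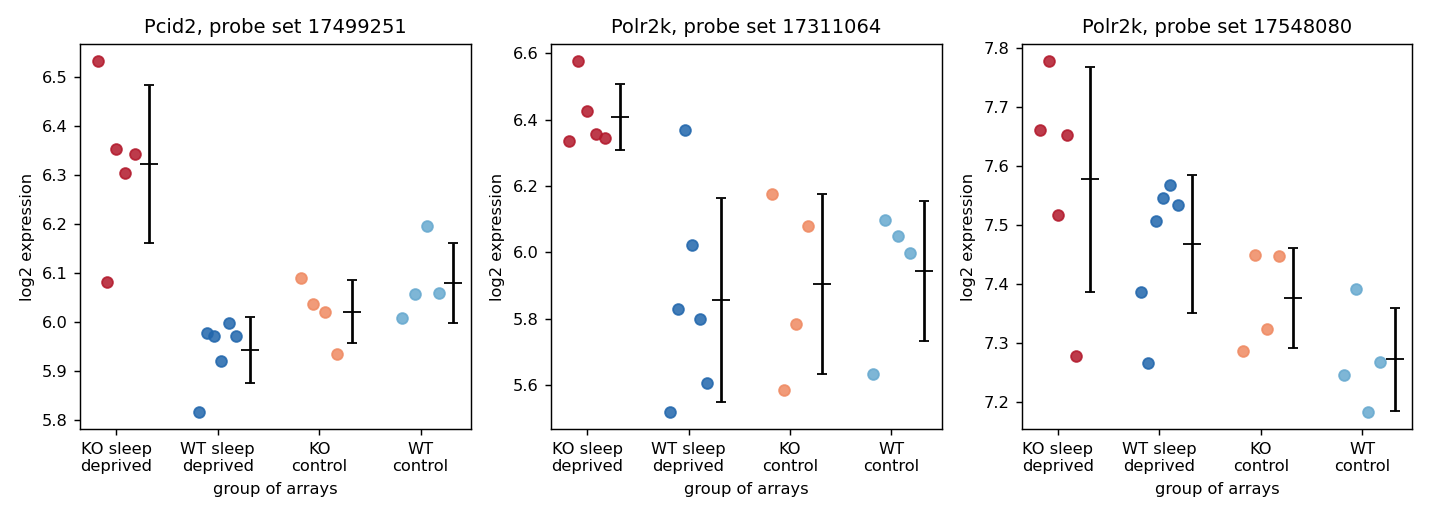
Log2 expression of each probe set on the 19 arrays, with 1 point per array and the group mean ± SD to its right; the vertical axes differ between panels. For Pcid2 the 5 sleep-deprived KO arrays lie between 6.08 and 6.53, all above the 6 sleep-deprived WT arrays, and for Polr2k 17548080 the groups overlap.

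The first Polr2k probe set, 17311064, was high in all sleep-deprived KO mice and scattered in the other groups. It read 6.34, 6.57, 6.42, 6.36 and 6.34 in the 5 sleep-deprived KO mice. In the 6 sleep-deprived WT mice it ran from 5.52 through a median of 5.81 to 6.37. KO controls read 6.18, 5.58, 5.79 and 6.08, and WT controls 5.63, 6.10, 6.05 and 6.00. All 5 sleep-deprived KO arrays lay above all 8 control arrays, and 1 sleep-deprived WT array, replicate 3 at 6.37, reached into the KO range. Against KO controls alone, 3.09% of all probe sets had sleep-deprived KO arrays entirely above, and the share against both control groups was not counted. The gene was chosen on these sleep-deprived arrays. The spread was smaller in sleep-deprived KO mice, at 6.41 ± 0.10 (SD, n = 5), than in sleep-deprived WT mice, at 5.86 ± 0.31 (SD, n = 6). KO controls averaged 5.91 ± 0.27 and WT controls 5.94 ± 0.21 (SD, n = 4 each). In order, the sleep-deprived KO mice were followed by WT controls, KO controls and sleep-deprived WT mice, with steps of 0.04 and 0.05 between the last 3 that lie within their spread.

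The second Polr2k probe set, 17548080, did not separate the genotypes. It read 7.66, 7.78, 7.52, 7.65 and 7.28 in sleep-deprived KO mice, and from 7.27 through a median of 7.52 to 7.57 in the 6 sleep-deprived WT mice. KO controls read 7.29, 7.45, 7.32 and 7.45, and WT controls 7.25, 7.39, 7.18 and 7.27. The sleep-deprived groups overlapped each other: 3 of 5 KO arrays lay above the highest WT array, and KO replicate 5, at 7.28, lay next to the lowest. That array had the highest median of all 19, at 6.07 against 5.90 to 6.04 on the others, and the lowest estimated array weight, 0.56. Without it the log2 difference of KO and WT after sleep deprivation on this probe set was 0.18, against 0.11 with all arrays. Means were 7.58 ± 0.19 (SD, n = 5) in sleep-deprived KO mice, 7.47 ± 0.12 (SD, n = 6) in sleep-deprived WT mice, 7.38 ± 0.08 in KO controls and 7.27 ± 0.09 in WT controls (SD, n = 4 each). This is also their order, with steps of 0.11, 0.09 and 0.10 between neighbours, each close to or under the SD of the groups it joins.

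The probe sets differed in brightness relative to the rest of the array. Over all 19 arrays, Pcid2 averaged 6.09 and Polr2k 17311064 averaged 6.03, with 52.7% and 51.3% of probe sets dimmer. Polr2k 17548080 averaged 7.44, with 79.6% of probe sets dimmer. Where the probes of the 2 Polr2k probe sets lie in the transcript is not given in the sources used here.

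In the comparison that chose the genes, KO against WT after sleep deprivation, the log2 change was 0.38 ± 0.07 (SE) for Pcid2, a 1.30-fold difference. It was 0.55 ± 0.14 (SE) for Polr2k 17311064, a 1.46-fold difference, and 0.11 ± 0.08 (SE) for Polr2k 17548080, a 1.08-fold difference. In limma's test over all probe sets the adjusted p-values behind the choice were 0.010, 0.045 and 0.58, in that order, so 2 of the 3 probe sets lay past the threshold of 0.05. Among all probe sets, 1.68% were called in this comparison and 1.54% were called higher, and nothing is read from the members' count against these shares. By adjusted p the last called probe set had 0.0498 and the next 0.0526, with Polr2k 17311064 at rank 124 and Pcid2 at rank 25 of 147 called. The calls split into 135 higher and 12 lower, and into 96 and 37 after quantile normalization and 83 and 26 after centring each array on its median. The median log2 change of all probe sets was 0.01. In tissue of mixed cells, a change in the number of cells of a type and a change in RNA per cell cannot be told apart.

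The call of Polr2k 17311064 was lost in 4 of 9 other settings and in 14 of 19 fits without 1 array. It missed the threshold after quantile normalization and after median centring (adjusted p = 0.068 for both), with only the sleep-deprived arrays in the fit (adjusted p = 0.084) and with the replicate number as a block (adjusted p = 0.13). Without 1 array its adjusted p ran up to 0.10, and it was 0.0043 without replicate 3 of the sleep-deprived WT mice, the array that reached into the KO range. Pcid2 passed in 19 of 19 fits without 1 array and missed the threshold in 1 of 9 other settings, with only the sleep-deprived arrays (adjusted p = 0.054). All these fits reuse arrays that chose the genes, so passing in them is a description and not support. The change itself kept its sign throughout: 0.48 to 0.65 without 1 array for Polr2k 17311064, 0.33 to 0.44 for Pcid2 and 0.06 to 0.18 for Polr2k 17548080, lowest without replicate 2 of the sleep-deprived KO mice and highest without replicate 5.

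**Figure D2:**
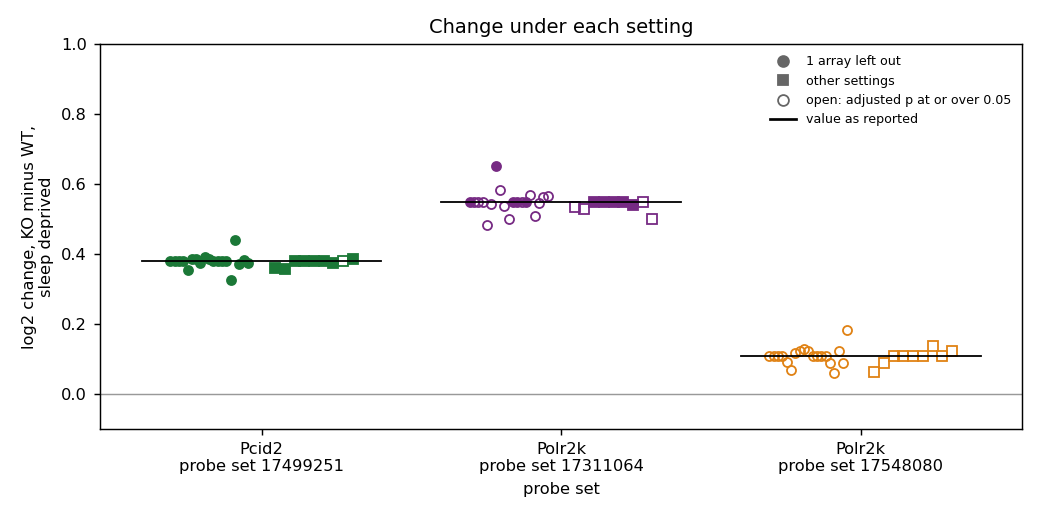
Log2 change of KO minus WT after sleep deprivation (vertical axis) for each probe set (horizontal axis) in 19 fits without 1 array (circles) and in 9 other settings (squares); open symbols have an adjusted p at or over 0.05 and the line marks the reported value. Pcid2 stays near 0.38 and Polr2k 17311064 near 0.55, with 14 open circles for Polr2k 17311064.

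Undisturbed mice asked whether the knockout differs in the levels of these genes without sleep loss. Control levels do not enter the difference that chose the genes, so this comparison could be tested. The control arrays did enter the estimate of spread behind the p-values of that choice. None of the 3 probe sets passed in limma's test, where 0% of all probe sets were called and 476 had an unadjusted p under 0.05. Pcid2 had a difference of -0.06 ± 0.08 (log2, SE; adjusted p = 0.95), with a 95% interval from -0.23 to 0.11. Polr2k 17311064 differed by -0.04 ± 0.16 (log2, SE; adjusted p = 0.98), with an interval from -0.37 to 0.29. Polr2k 17548080 differed by 0.10 ± 0.10 (log2, SE; adjusted p = 0.94), with an interval from -0.10 to 0.31. The exact two-sided permutation test of 4 against 4 arrays gave p = 0.34 for Pcid2, p = 0.89 for Polr2k 17311064 and p = 0.14 for Polr2k 17548080, where the smallest p it can give is 0.029.

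Sleep deprivation averaged over both genotypes asked whether the genes respond to enforced wakefulness. This average weights the sleep-deprived KO and WT groups equally, so the difference between them that chose the genes enters it little, though the arrays are the same. Polr2k 17548080 was higher after sleep deprivation by 0.20 ± 0.06 (log2, SE; 95% interval 0.07 to 0.33, adjusted p = 0.34). Its unadjusted p was 0.0056, the same order as the exact two-sided permutation p = 0.0062 from shuffling condition within genotype, and it ranked 145 of 8751 by p. It therefore failed the adjustment over all probe sets, in which 0.263% were called. Over the other settings and the fits without 1 array its adjusted p ran from 0.097 to 0.59. Polr2k 17311064 had a response of 0.21 ± 0.10 (log2, SE; adjusted p = 0.65, exact permutation p = 0.13), and Pcid2 one of 0.08 ± 0.05 (log2, SE; adjusted p = 0.76, exact permutation p = 0.28). The intervals were -0.01 to 0.42 and -0.03 to 0.19. The all-probe-set median was 0.02 and 58.1% of probe sets had a positive sign.

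**Figure D3:**
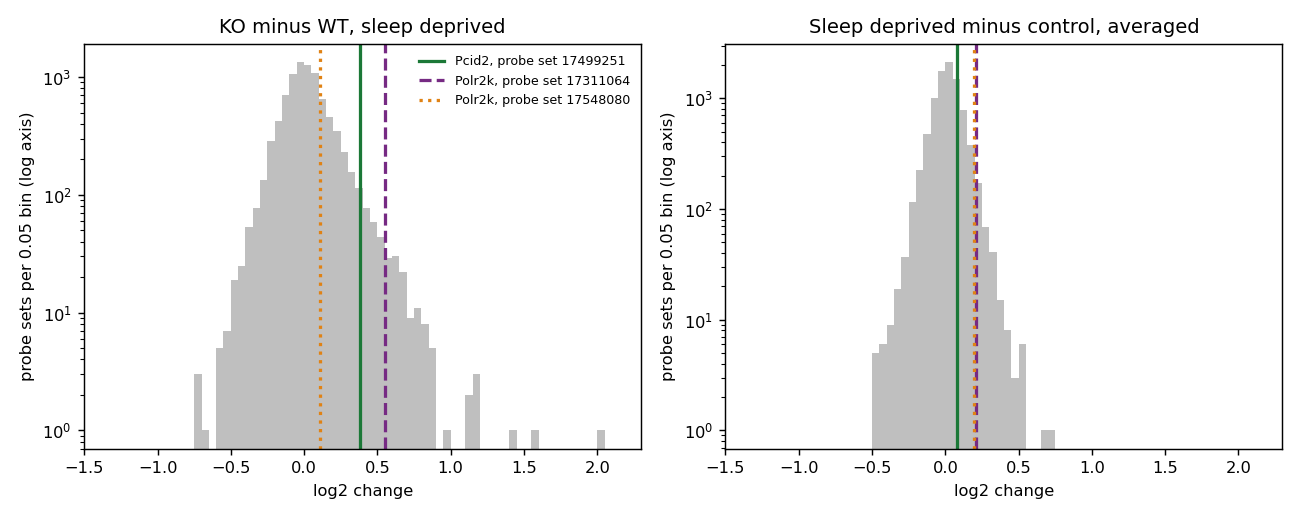
Number of probe sets per 0.05 of log2 change, on a log axis, among all 8751, with the members as vertical lines. After sleep deprivation Polr2k 17311064 at 0.55 and Pcid2 at 0.38 lie in the upper tail, and in the averaged sleep deprivation comparison both Polr2k probe sets lie near 0.20.

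The responses of the 2 Polr2k probe sets to sleep deprivation were set against each other. The response of 17548080 minus that of 17311064 was -0.01 on the log2 scale averaged over genotypes (exact two-sided permutation p = 0.95). For genotype in controls this difference between probe sets was 0.14 (exact p = 0.49). Within KO mice it was -0.30 and within WT mice 0.28, which is a description because these reuse the arrays that chose the gene.

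Within KO mice, sleep-deprived minus control gave log2 changes of 0.30 ± 0.08 for Pcid2, 0.50 ± 0.15 for Polr2k 17311064 and 0.20 ± 0.09 for Polr2k 17548080 (SE). All 5 sleep-deprived KO arrays exceeded all 4 KO controls for Polr2k 17311064, as did 3.09% of all probe sets. For Pcid2 and Polr2k 17548080, 4 of 5 did so. Within WT mice the changes were -0.14 ± 0.07 for Pcid2, -0.09 ± 0.14 for Polr2k 17311064 and 0.20 ± 0.09 for Polr2k 17548080 (SE). All 6 sleep-deprived WT arrays lay below all 4 WT controls for Pcid2, as did 0.743% of all probe sets. Polr2k 17548080 was above the WT control mean in 5 of 6 sleep-deprived WT arrays. The KO comparison shares its sleep-deprived arrays with the comparison that chose the genes, and so does the WT comparison.

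The response in KO minus the response in WT was 0.44 ± 0.11 (SE) for Pcid2, 0.59 ± 0.21 (SE) for Polr2k 17311064 and 0.01 ± 0.13 (SE) for Polr2k 17548080. Their adjusted p-values in limma's test were 0.18, 0.28 and 0.99, and 0.0686% of all probe sets were called. This difference contains the comparison that chose the genes. For Pcid2 every sleep-deprived KO array lay above the KO control mean and every sleep-deprived WT array below the WT control mean, as for 0.868% of all probe sets. For Polr2k 17548080 the 95% interval ran from -0.26 to 0.27, and its responses in KO and WT mice were both 0.20.

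**Figure D4:**
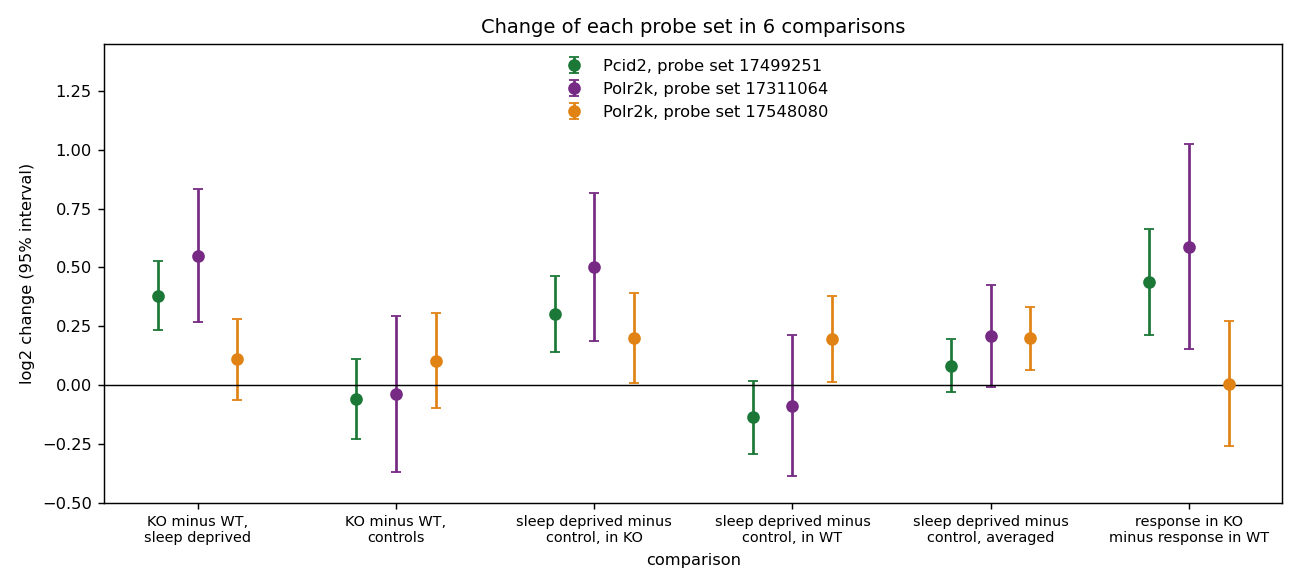
Log2 change with its 95% interval (vertical axis) of the 3 probe sets in 6 comparisons (horizontal axis). Pcid2 and Polr2k 17311064 lie above 0 for KO minus WT after sleep deprivation and near 0 in controls, and Polr2k 17548080 lies at 0.20 for sleep deprivation in each genotype.

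Within groups the members did not vary together in a way the test could detect. After subtracting group means, which removes the comparison that chose the genes, the 2 Polr2k probe sets had Pearson r = 0.15 over 19 arrays (permutation p = 0.50, adjusted p = 0.76) and Spearman rho = 0.13 (permutation p = 0.59, adjusted p = 0.89). Pcid2 with Polr2k 17311064 gave r = 0.04 (permutation p = 0.83, adjusted p = 0.83) and rho = 0.04 (permutation p = 0.89, adjusted p = 0.89). Pcid2 with Polr2k 17548080 gave r = -0.26 (permutation p = 0.48, adjusted p = 0.76) and rho = -0.30 (permutation p = 0.26, adjusted p = 0.79). The adjustment covers these 3 pairs. Without the 2 arrays farthest from the median on the x axis r was 0.07, -0.16 and -0.28, in the same order. With each array first centred on its median it was 0.33, 0.21 and 0.19, so r of each pair with Pcid2 changed sign under 1 of these choices. Replicate 2 of the sleep-deprived KO mice held the highest value of its group on both Polr2k probe sets and the lowest on Pcid2.

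**Figure D5:**
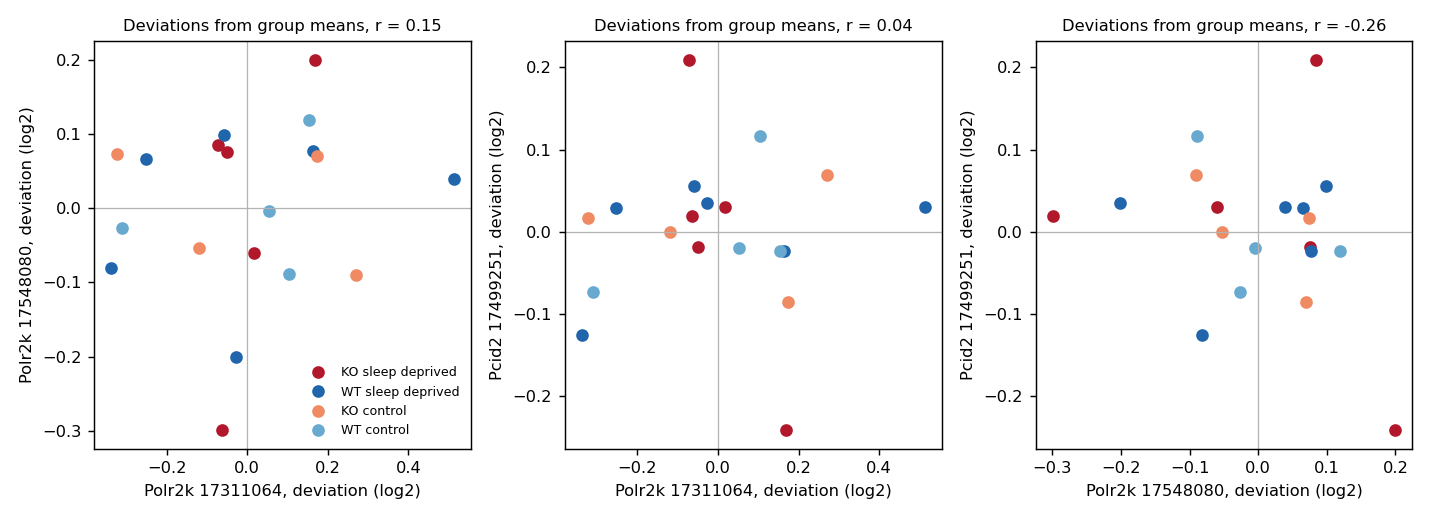
Deviation of each array from its group mean on the log2 scale, for the 3 pairs of probe sets, with 1 point per array coloured by group. The points form no line in any pair, with r between -0.26 and 0.15, and 1 sleep-deprived KO array sits at the lower right where Pcid2 is set against Polr2k 17548080.

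The genes most like each member were taken as those with the highest Pearson r over the 19 arrays among 731 named genes. These correlations include the differences between groups and share arrays and normalization, so they are descriptions. Pcid2 was most like Vmn1r148, a vomeronasal receptor gene (r = 0.81), Mid1, a ubiquitin ligase bound to microtubules (r = 0.75), Spatc1l (r = 0.70), Sh3gl2, the synaptic vesicle protein endophilin A1 (r = 0.70), and Ssbp1, a mitochondrial DNA-binding protein (r = 0.67). With group means subtracted these r were between 0.20 and 0.48. Each of the 5 had a higher level in sleep-deprived KO than in sleep-deprived WT mice, by log2 values of 1.10, 0.56, 0.39, 0.34 and 0.25 in the same order. Ranking genes on arrays that hold this difference favours such a result. Polr2k 17311064 was most like Ube2d2a, a ubiquitin-conjugating enzyme (r = 0.85), Spatc1l (r = 0.75), Ywhaq, a 14-3-3 protein (r = 0.74), Rpa3, a subunit of the single-strand DNA-binding complex RPA (r = 0.74), and Sec61g, a subunit of the protein translocon (r = 0.74). With group means subtracted Ywhaq kept r = 0.75 and Ube2d2a r = 0.66, and the other 3 lay between 0.48 and 0.56. Spatc1l stood in the lists of both genes. Polr2k 17548080 was most like Josd1, a deubiquitinase (r = 0.81), Npc1, a cholesterol transporter of lysosomes (r = 0.71), Kcna4, a voltage-gated potassium channel (r = 0.70), Xirp2, an actin-binding protein (r = 0.70), and Rybp, a polycomb-associated protein (r = 0.69). Its 5 genes shared none with the other Polr2k probe set. Their r with group means subtracted lay between 0.52 and 0.78. The 5 genes of Polr2k 17311064 were also all higher in sleep-deprived KO than in sleep-deprived WT mice, by log2 values of 0.12 to 0.39. Those of Polr2k 17548080 were all higher by 0.02 to 0.21.

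Of the 8751 probe sets, 1308 carried 1 gene symbol, for 1121 genes, 1178 carried several symbols and 6265 carried none. Shares over all probe sets therefore describe mostly probe sets without a symbol. Genes are counted here as measured only if a probe set in the deposited values names them alone. By this count the rest of the transcription and export machinery was thinly measured. Of 36 RNA polymerase subunit genes, 0 besides Polr2k had a probe set naming that gene alone. Of 42 genes of TREX-2 and messenger RNA export, 1 besides Pcid2 was measured, Srsf1, a splicing factor that also serves as an export adaptor. It read 6.92 ± 0.12 (SD, n = 5) in sleep-deprived KO mice and 6.92 ± 0.17 (SD, n = 6) in sleep-deprived WT mice, a log2 difference of -0.00067 ± 0.088 (SE; limma, adjusted p = 0.998). The scaffold nucleoporin Nup188 was the 1 of 33 nuclear pore genes, with a difference of -0.03 ± 0.08 (log2, SE; adjusted p = 0.91). Of 82 general transcription factor and Mediator genes, 4 were measured. Among them Taf1d, a subunit of the RNA polymerase I selectivity factor, differed by 0.22 ± 0.09 (log2, SE; adjusted p = 0.27), Med27 of Mediator 0.05 (adjusted p = 0.79), Taf9 of TFIID -0.02 (adjusted p = 0.94) and Gtf2a1 of TFIIA -0.0017 (adjusted p = 0.996). The median of these 4 was 0.03, against 0.01 over all probe sets. Gtf2a1 averaged 2.73 in both sleep-deprived groups, near the lowest value of the series, 2.18, so a change in it could be missed. The lists of 40 elongation and termination genes, 23 genes of 3′ end processing and 34 genes of the PCI-domain complexes had 1 measured gene each. Elob, a subunit of elongin, had 0.08 (adjusted p = 0.58), Papolg, a poly(A) polymerase, 0.15 (adjusted p = 0.48) and Eif3j1, of translation initiation factor eIF3, -0.10 (adjusted p = 0.65). For these 9 genes 0 passed in either direction in this comparison, in controls or in sleep deprivation averaged over genotypes. The members' own changes in this comparison were 0.38 for Pcid2, 0.55 for Polr2k 17311064 and 0.11 for Polr2k 17548080, the last below those of Taf1d and Papolg.

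None of the measured genes nearest to the members on the chromosomes was called in the comparison of genotypes after sleep deprivation. Since 1.68% of all probe sets were called in it, nothing is read from so few neighbours. Within 5 Mb of Pcid2, 5 other genes were measured, with log2 changes of KO against WT after sleep deprivation from -0.08 to 0.08, and 0 were called. Within 5 Mb of Polr2k, 1 was measured, with a log2 change of -0.15, and 0 were called. Pcid2 and Polr2k lie on different chromosomes.

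Over the whole series, array medians ran from 5.90 to 6.07 and correlations between arrays from 0.981 to 0.993. Of 15 neuron markers, Map2 and Slc32a1 were measured, with Map2 averaging 11.75 in sleep-deprived KO mice and 11.80 in sleep-deprived WT mice. None of the listed markers of astrocytes, oligodendrocytes, microglia, endothelium, choroid plexus, blood or forebrain regions had a probe set of its own in the deposited values. The makeup of the tissue could therefore not be compared between groups. The labels give each array as its own sample without saying which animal it came from, so p-values cover the spread between samples only, which may be partly technical.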

How the data were processed

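Forebrain RNA was labelled with biotin and hybridised to 19 arrays. The deposited values are log2 expression, 1 per probe set and array. RMA, oligo and limma are named in the submitters' processing notes, with no versions, and the genome build is not given in the sources used here. Groups came from sample titles. Genes were named from the platform annotation where a probe set had 1 symbol. The members and gene lists were chosen with earlier results of these data known.

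A mean for each of the 4 groups was fitted with limma 3.58.1 (R 4.3.3), without covariates. Benjamini-Hochberg adjustment ran over all 8751 rows, of which 346 repeated an earlier row. Exact permutation tests enumerated array labels, and correlations used 100000 permutations within groups. The limma fit was tested on simulated data. Named genes were the members, the 5 genes most like each member row and the measured genes of the pathway lists, with predicted, microRNA and unnamed-clone symbols passed over for likeness. Alternatives covered normalization, rows, prior variance, array weights, the choice of arrays, a block for the replicate number and leaving out each array. The number of arrays limits the precision.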

Additional observations from a re-analysis of the deposited data

Results flagged for a closer look

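The estimated responses of Pcid2 to sleep deprivation had opposite signs in the genotypes, 0.30 in KO and -0.14 in WT mice (log2). In WT mice the 95% interval ran from -0.29 to 0.02 and so included no change. Every sleep-deprived KO array lay above the KO control mean and every sleep-deprived WT array below the WT control mean, with a difference between the responses of 0.44 on the log2 scale. Of all probe sets, 0.868% had this pattern. The difference was not tested beyond the fit across all probe sets, where limma's adjusted p was 0.18 and ran from 0.087 to 0.30 over the alternatives, and the gene was chosen on the sleep-deprived arrays.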

How the results depend on the processing

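Of 504 values of the members under alternatives, 489 kept their sign and 15 did not, and 0 of the 165 in tested comparisons passed the threshold, as in the reported fit. The interaction of Polr2k 17548080, 0.0053 as reported, changed sign in 9 alternatives, to -0.017 with quantile normalization and down to -0.045 without 1 array. The genotype change of Polr2k 17311064 in controls had the opposite sign with array weights (log2 change 0.030) and ranged from -0.14 to 0.069 without 1 array. The within-group r changed sign to -0.16 for Polr2k 17311064 with Pcid2 without the 2 outlying arrays, and to 0.19 for Polr2k 17548080 with Pcid2 after median centring. In tests, 23 probe sets were called for averaged sleep deprivation, 18 higher and 5 lower. The count was 14 with median centring (9 and 5), 20 with quantile normalization (13 and 7), 8 with probe sets of 1 symbol, 39 without the dimmest 40%, 39 with a variance trend, 37 with array weights, 9 with the replicate block, and 14 to 29 without 1 array, with 14 without WT control replicate 1. For genotype after sleep deprivation it was 147, and 28 with probe sets of 1 symbol, 36 with only the compared arrays, 70 with the replicate block, and 67 to 298 without 1 array. It was 89, 78, 298 and 78 without sleep-deprived WT replicates 1 to 4, and 67 and 94 without sleep-deprived KO replicates 1 and 3. For genotype in controls it was 0 throughout. The cause of these changes in count was not tested. Some of the settings hold fewer rows or arrays by construction. The labels do not say what the replicate number stands for. Correlations between the deviations of same-numbered arrays of different groups ran from -0.22 to 0.08 (25 pairs). Their median was -0.03, against 0.01 for arrays with different numbers. With that number as a block, the log2 change after sleep deprivation was 0.50 for Polr2k 17311064 and 0.39 for Pcid2. For averaged sleep deprivation and the interaction, a fit on the compared arrays alone is the full fit and was not run apart.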
